A study of Mus musculus with 6 samples.

Results

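In bulk cerebellar RNA libraries of WT (n = 2) and KIKO (n = 3) mice, 10 genes of the NRF2 pathway and of antioxidant defence were examined. These were *Nfe2l2* and *Keap1*, the regulators, *Nqo1*, *Gclc*, *Gclm* and *Prdx1*, which NRF2 is known to induce, and the peroxide and superoxide enzymes *Gpx1*, *Gpx4*, *Sod1* and *Sod2*. They were chosen by symbol, and all 10 were found among the 31053 genes of the count table. Of these, 9 passed the filter on low counts and were tested with 10889 genes in all, while *Nqo1* did not. The KIKO (knock-in knock-out) mouse is a model of Friedreich's ataxia. The WT mice are described as C57BL/6 littermates. The labels name the cerebellum and the genotype, and the study describes CD45+/CD11b+ cells sorted magnetically from the cerebellum of 6-mo-old mice. The labels do not give the age, the sex or the sorting, and no treatment is named for either group. The WT sample numbered 3 in the labels was not analysed here.

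NRF2, the product of *Nfe2l2*, is a transcription factor that is held in the cytosol by KEAP1 and passed to the CUL3 ubiquitin ligase for degradation. When oxidants or electrophiles such as itaconate modify cysteines of KEAP1, NRF2 escapes, enters the nucleus and binds antioxidant response elements together with small MAF proteins. Its best known targets make glutathione, reduce quinones and remove peroxides. Much of this control acts on the NRF2 protein, which RNA counts do not measure. In microglia, superoxide comes mainly from mitochondria and from the NADPH oxidase, and the antioxidant enzymes limit its spread.

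The libraries held between 1013107 and 1351339 counts. A value of 3 counts in a library, taken as the smallest signal, was a normalized CPM (CPM after TMM scaling of the library sizes) between 2.28 and 3.04, which covers counting error only. KIKO replicate 2 stood apart from the other libraries. Its log2 CPM correlated across genes, which are not independent replicates, with r from 0.672 to 0.747 with the others, against 0.884 to 0.931 among the other four. The values of the 10 genes are therefore also given without it. The 10 microglial markers were present in each library, as were those of neurons, oligodendrocytes and the choroid plexus. In bulk RNA, fewer cells of a type and less RNA per cell cannot be told apart.

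The antioxidant response element has a core of TGACNNNGC, where N is any base. RefSeq promoter windows on GRCm38.p6, from 250 bases before to 50 bases after the start of transcription, were matched by symbol for 9 of the 10 genes. *Gclc* had no window. The core was searched on both strands and was present in the windows of *Nfe2l2*, *Gclm*, *Sod1* and *Prdx1*, 4 of the 9 genes. Over all promoters, it was present for 14% of 27025 genes and in 12.4% of 32851 windows. A match is a description of the sequence and not a mapped binding site. These 4 windows are shown because they place the element beside genes whose levels are given below. They are printed 5′ to 3′ on the strand of the gene, with the match in capitals.
Nfe2l2 (chr2:75704614-75704913, minus strand): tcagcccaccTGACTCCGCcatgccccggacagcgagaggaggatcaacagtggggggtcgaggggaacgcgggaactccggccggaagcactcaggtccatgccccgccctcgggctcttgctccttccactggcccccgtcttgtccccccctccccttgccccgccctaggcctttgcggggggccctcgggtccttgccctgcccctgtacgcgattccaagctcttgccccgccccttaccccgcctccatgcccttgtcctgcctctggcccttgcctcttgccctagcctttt
Gclm (chr3:122245307-122245606, plus strand): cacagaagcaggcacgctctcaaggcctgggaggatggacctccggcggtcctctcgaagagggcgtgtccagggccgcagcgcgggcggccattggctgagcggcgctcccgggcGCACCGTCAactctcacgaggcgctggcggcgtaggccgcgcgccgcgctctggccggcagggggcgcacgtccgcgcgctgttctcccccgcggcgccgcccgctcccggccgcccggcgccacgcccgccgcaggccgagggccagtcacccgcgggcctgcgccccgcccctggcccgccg
Sod1 (chr16:90220512-90220811, plus strand): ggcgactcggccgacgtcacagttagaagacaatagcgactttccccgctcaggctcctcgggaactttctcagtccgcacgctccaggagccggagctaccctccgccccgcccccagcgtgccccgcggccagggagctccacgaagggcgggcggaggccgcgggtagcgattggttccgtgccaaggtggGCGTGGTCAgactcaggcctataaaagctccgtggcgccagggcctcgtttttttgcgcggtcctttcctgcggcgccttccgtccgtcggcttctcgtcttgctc
Prdx1 (chr4:116685349-116685648, plus strand): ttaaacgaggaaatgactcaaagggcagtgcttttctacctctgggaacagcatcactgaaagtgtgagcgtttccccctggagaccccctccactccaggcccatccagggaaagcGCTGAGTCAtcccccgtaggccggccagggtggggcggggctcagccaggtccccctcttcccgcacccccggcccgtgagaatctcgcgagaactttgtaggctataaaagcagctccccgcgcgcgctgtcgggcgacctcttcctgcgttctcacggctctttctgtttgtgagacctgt
The first base of the match lay at position −240 from the start of *Nfe2l2*, −134 of *Gclm*, −56 of *Sod1* and −133 of *Prdx1*. On its own strand, it read TGACTCCGC in *Nfe2l2*, TGACGGTGC in *Gclm*, TGACCACGC in *Sod1* and TGACTCAGC in *Prdx1*. The match of *Prdx1* also contains the AP-1 motif TGANTCA, which was found in 7.81% of all windows. The windows of *Keap1*, *Nqo1*, *Gpx1*, *Gpx4* and *Sod2* did not hold the letters of the core. Sequence outside these windows was not searched, so an element farther from the start would not have been found.

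None of the 9 tested genes differed between KIKO and WT mice beyond the spread between libraries. The thresholds had the sizes that the study states, a p under 0.05, taken here as unadjusted, together with a log2 fold change whose size exceeded 0.75, and 0 of the 9 genes passed them. Of all 10889 genes, 1.2% did so in the quasi-likelihood test of edgeR. None had an adjusted p under 0.05 in the same test either, and 0% of all genes did. The smallest unadjusted p of all genes was 0.00399, and 131 genes (1.2%) had an unadjusted p under 0.05. If no gene differed, a share near 0.05 would be expected there, so this fit was cautious for all genes. Its common coefficient of variation between libraries was 0.468, against 0.238 without KIKO replicate 2. That none of the 9 genes passed therefore says little about whether they differed. The log2 fold change was above 0 for 5 and below 0 for 4 of the 9 genes. Its median was 0.0076, compared with 0.022 over all genes tested. When KIKO replicate 2 was left out, it was above 0 for 3 of the 9 genes, with a median of −0.074, compared with −0.012 over all genes.

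**Figure D1:**
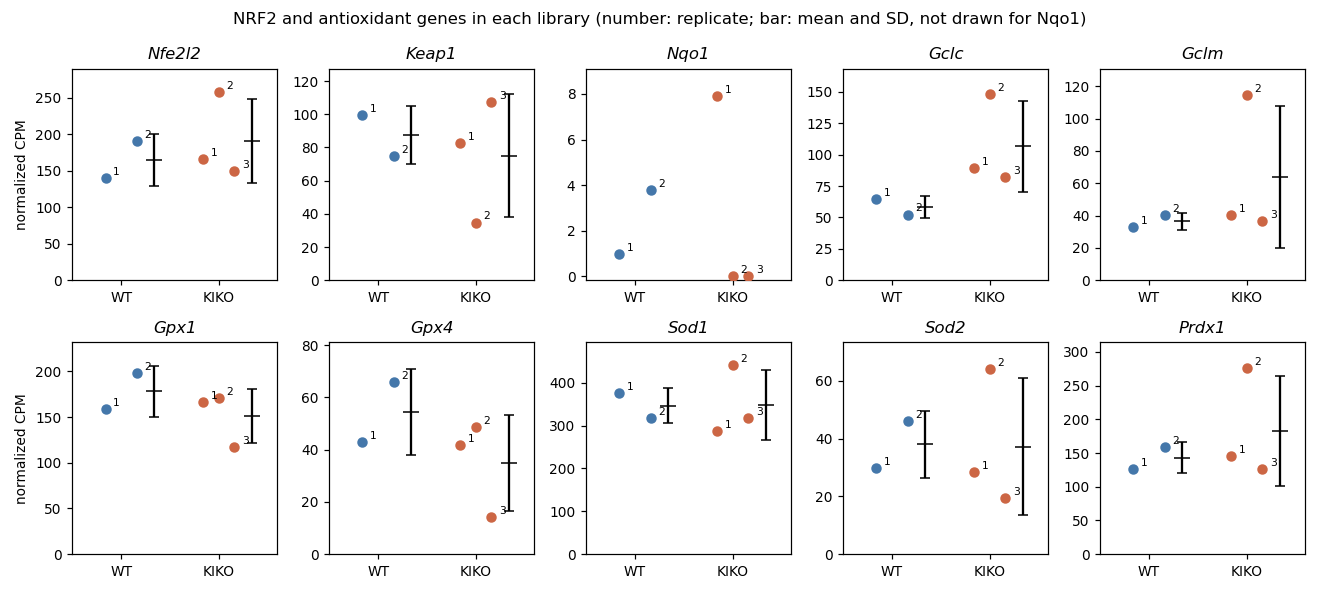
Normalized CPM of the 10 genes (vertical axes, each with its own scale and 0 included) in each WT (blue) and KIKO (orange) library, with the replicate number beside each point and bars for the mean and SD, which are not drawn for *Nqo1*. KIKO replicate 2 is the highest library for 6 genes and the lowest for *Keap1*, and *Gclc* is the one tested gene whose WT and KIKO points do not overlap.

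*Nfe2l2* (chromosome 2, 75675513 to 75704641), which encodes NRF2, had 139 and 190 normalized CPM in the WT libraries and 166, 257 and 150 in KIKO replicates 1, 2 and 3, respectively. KIKO replicate 2 was above both WT libraries, and the other KIKO values lay between them. Its log2 fold change was 0.21 (SE, standard error, 0.40, 95% confidence interval −0.70 to 1.12, adjusted p = 1 by edgeR). Without KIKO replicate 2 it was −0.07, with an interval from −0.62 to 0.48.

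*Keap1* (chromosome 9, 21229730 to 21239361), the cysteine-rich sensor that restrains NRF2, had 99.6 and 75.1 normalized CPM in WT and 82.8, 34.8 and 107.6 in KIKO mice. Here KIKO replicate 2 was the lowest library, with 45 counts against 99 to 106 in the others. Between the groups, the log2 fold change was −0.22 (SE 0.50, 95% confidence interval −1.37 to 0.93, adjusted p = 1 by edgeR) and became 0.12 without that library. The exons of *Keap1* share 510 bases with the antisense gene *Gm16754*, and the strand setting of the counting is not given in the sources used here. The count of *Nfe2l2* divided by that of *Keap1* in the same library was 1.4 and 2.54 in WT and 2.0, 7.4 and 1.4 in KIKO mice. The KIKO values overlapped with the WT values, and KIKO replicate 2 alone was far above them.

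*Gclc* (chromosome 9, 77754535 to 77794485), the catalytic subunit of glutamate-cysteine ligase and the rate-limiting enzyme of glutathione synthesis, had 64.7 and 52.3 normalized CPM in WT and 89.1, 148 and 82.2 in KIKO mice. All 3 KIKO libraries lay above both WT libraries, as for 8.2% of all genes tested. In either direction, the groups did not overlap for 16.7% of all genes. The WT mean was 58.5 ± 8.78 (SD, n = 2), and the KIKO mean was 106.6 ± 36.4 (SD, n = 3). The log2 fold change was 0.87 (SE 0.42, 95% confidence interval −0.09 to 1.83), the largest among the 9 genes, with an unadjusted p of 0.0713 and an adjusted p = 1 by edgeR. Without KIKO replicate 2 it was 0.55, with an interval from −0.09 to 1.19 and an unadjusted p of 0.0907. The groups did not overlap in that fit either, as for 38.8% of all genes with these 4 libraries.

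*Gclm* (chromosome 3, 122245557 to 122270732), the modifier subunit of the same ligase, had 32.9 and 40.2 normalized CPM in WT and 40.2, 114 and 36.5 in KIKO mice. KIKO over WT, its log2 fold change was 0.80 (SE 0.58, 95% confidence interval −0.53 to 2.14, adjusted p = 1 by edgeR). The value rested on KIKO replicate 2, which was 3.05 times the mean of the other libraries. Without that library the log2 fold change was 0.06, with an interval from −0.74 to 0.86. *Gclm* shares 244 exonic bases with the pseudogene *Gm6061* on the same strand and 296 with *Gm17494* on the other, and neither is listed in the count table.

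*Nqo1* (chromosome 8, 107388225 to 107403206), the quinone reductase often used as a readout of NRF2, was near the limit of detection. It had 1 and 5 counts in WT and 10, 0 and 0 counts in KIKO mice. The 0 counts allow a level of up to 2.32 normalized CPM in KIKO replicate 2 and 3.04 in KIKO replicate 3. No difference in *Nqo1* was detectable at this depth, and no fold change is given.

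The glutathione peroxidases encoded by *Gpx1* and *Gpx4* are selenoproteins that reduce peroxides with glutathione. *Gpx1* (chromosome 9, 108338903 to 108340343), the abundant cytosolic and mitochondrial form, had 158 and 198 normalized CPM in WT and 166, 171 and 118 in KIKO mice. Of the KIKO libraries, 2 lay between the WT values and replicate 3 below them. For *Gpx1* the log2 fold change was −0.23 (SE 0.36, 95% confidence interval −1.06 to 0.60, adjusted p = 1 by edgeR) and −0.33 without KIKO replicate 2.

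*Gpx4* (chromosome 10, 80047166 to 80056439) reduces phospholipid hydroperoxides within membranes and protects cells from ferroptosis. It had 42.8 and 66.0 normalized CPM in WT and 41.8, 48.7 and 14.2 in KIKO mice. KIKO replicate 3, with 14 counts, was far below the others, and the rest overlapped. The log2 fold change was −0.63 (SE 0.56, 95% confidence interval −1.92 to 0.65, adjusted p = 1 by edgeR). Without KIKO replicate 2 the log2 fold change was −0.94 (SE 0.43, 95% confidence interval −1.81 to −0.06, adjusted p = 0.567 by edgeR), and *Gpx4* then passed both thresholds with an unadjusted p of 0.0364, as did 6.45% of the 10373 genes tested in that fit. With sample quality weights it was −0.96 and passed both thresholds, as did 4.77% of genes. In these fits *Gpx4* was the only one of the 10 genes past both thresholds. Without KIKO replicate 3 its log2 fold change was −0.27.

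*Sod1* (chromosome 16, 90220754 to 90226329), the copper-zinc superoxide dismutase of the cytosol, had the highest counts of the 10 genes. It had 376 and 318 normalized CPM in WT and 287, 440 and 318 in KIKO mice. The estimate was a log2 fold change of 0.0076 (SE 0.38, 95% confidence interval −0.85 to 0.87, adjusted p = 1 by edgeR). *Sod2* (chromosome 17, 13006846 to 13040063), the manganese enzyme of the mitochondrial matrix, had 29.9 and 46.3 normalized CPM in WT and 28.4, 64.1 and 19.3 in KIKO mice. The KIKO libraries lay on both sides of the WT libraries. Its log2 fold change was −0.03, with an interval from −1.37 to 1.31.

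Without KIKO replicate 2, the log2 fold change was −0.20 for *Sod1* (interval −0.71 to 0.31) and −0.68 for *Sod2* (interval −1.57 to 0.22). For *Sod1*, *Sod2* and *Gpx4*, both remaining KIKO libraries were then below both WT libraries. With 2 libraries against 2, the groups did not overlap for 38.8% of all genes.

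*Prdx1* (chromosome 4, 116685544 to 116700822), a peroxiredoxin that reduces hydrogen peroxide with thioredoxin, had 127 and 159 normalized CPM in WT and 146, 277 and 127 in KIKO mice. As for *Gclm*, KIKO replicate 2 was above the other libraries, which overlapped. For *Prdx1* it was 0.36 on the log2 scale (SE 0.44, 95% confidence interval −0.65 to 1.37, adjusted p = 1 by edgeR) and −0.07 without that library.

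**Figure D2:**
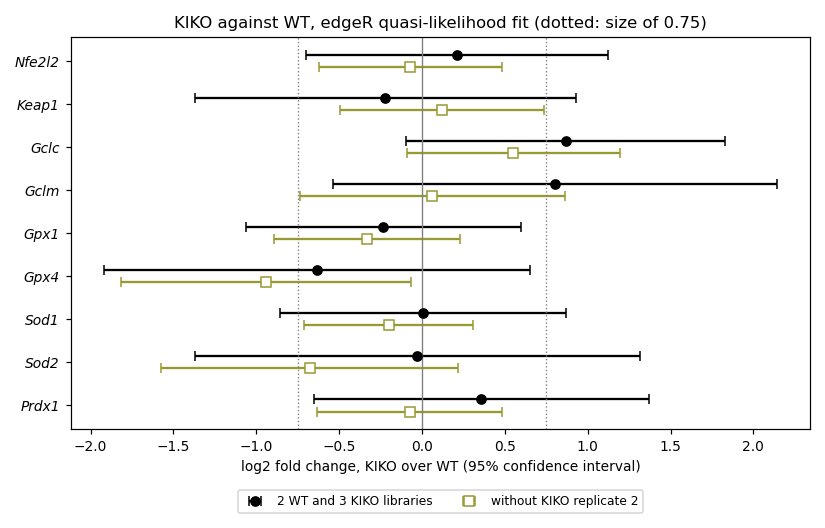
Log2 fold change of KIKO over WT mice (horizontal axis) with its 95% confidence interval for the 9 tested genes, from all 5 libraries (black circles) and without KIKO replicate 2 (open squares). Dotted lines mark a size of 0.75, every interval from all libraries includes 0, and without KIKO replicate 2 that of *Gpx4* does not.

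The intervals also show what these libraries leave undecided. With all libraries, the interval included a log2 fold change of 0.75 or of −0.75 for each of the 9 genes. A difference of that size in at least 1 direction was therefore not excluded for any of them. The narrowest interval was that of *Gpx1*.

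KIKO replicate 2 was the highest library for *Nfe2l2*, *Gclc*, *Gclm*, *Sod1*, *Sod2* and *Prdx1*, and it alone was the lowest for *Keap1*. Against the mean of the other 4 libraries, its level was 1.59 times for *Nfe2l2*, 2.06 times for *Gclc*, 1.98 times for *Prdx1*, 2.07 times for *Sod2* and 0.381 times for *Keap1*. *Gpx1* (1.07 times) and *Gpx4* (1.18 times) were within the range of the others. The same library had the highest summed level of the 10 microglial markers, with 11896 normalized CPM against 4607 to 6631, and of the 5 oligodendrocyte markers, with 18660 against 4449 to 11695. It had the lowest sum of the 6 neuronal markers, with 1944 against 2401 to 3982. All 10 microglial, 5 oligodendrocyte and 6 neuronal markers had counts. The part of these shifts in the levels of the antioxidant genes was not tested.

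Between the genotypes, the summed markers overlapped for microglia (5196 and 6631 normalized CPM in WT, 4607 to 11896 in KIKO mice), for neurons (2401 and 3882 in WT, 1944 to 3982 in KIKO mice) and for the choroid plexus (12809 and 13897 in WT, 7858 to 15546 in KIKO mice). The choroid plexus sum came mostly from *Ttr*. Of its 5 markers, 0 passed the thresholds, and the log2 fold change was above 0 for 1. *Enpp2* and *Folr1* were lower in each KIKO library, while *Ttr*, *Kl* and *Clic6* overlapped. In either direction, the groups did not overlap for 16.7% of all genes tested. The sum of the neutrophil and monocyte markers was higher in each KIKO library, with 16.9 and 27.3 in WT and 32.5 to 93.1 in KIKO mice. It came mostly from *S100a8* and *S100a9*, and for each of these genes alone the groups overlapped. *Ccr2* had 0 and 7 counts in WT and 2, 0 and 0 in KIKO mice, and *Ly6c2* was at 0 in all libraries. Of these 5 markers, 2 could be tested and 0 passed the thresholds. The summed markers of mural cells and fibroblasts were 162.37 and 191.89 in WT and 139.02 to 162.27 in KIKO mice. The highest KIKO value thus nearly reached the lower WT value. Of these 5 markers, 4 were tested and 0 passed the thresholds, with a log2 fold change above 0 for 2. *Rgs5* and *Lum* were lower and *Col1a1* was higher in each KIKO library, while *Pdgfrb* and *Dcn* overlapped. *Lum* had 7 and 6 counts in WT and 2, 0 and 1 in KIKO mice, too few to be tested. *Col1a1* had 4 and 7 counts in WT and 7, 51 and 15 in KIKO mice. Groups that did not overlap in either direction made up 16.7% of all genes tested. The summed astrocyte markers overlapped, with 243 and 408 in WT and 343 to 434 in KIKO mice. Of the 5 astrocyte markers, only *Gfap*, the intermediate filament of astrocytes, passed the thresholds, as did 1.2% of all genes tested. *Gfap* had 19.9 and 9.86 normalized CPM in WT and 30.0, 44.8 and 36.5 in KIKO mice. It was higher in each KIKO library, as were 8.2% of all genes tested. Its log2 fold change was 1.32 (SE 0.55, adjusted p = 1 by edgeR). For *Aqp4*, *Aldoc*, *Slc1a3* and *Gja1*, the groups overlapped. The part of these markers in the levels of the antioxidant genes was not tested.

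**Figure D3:**
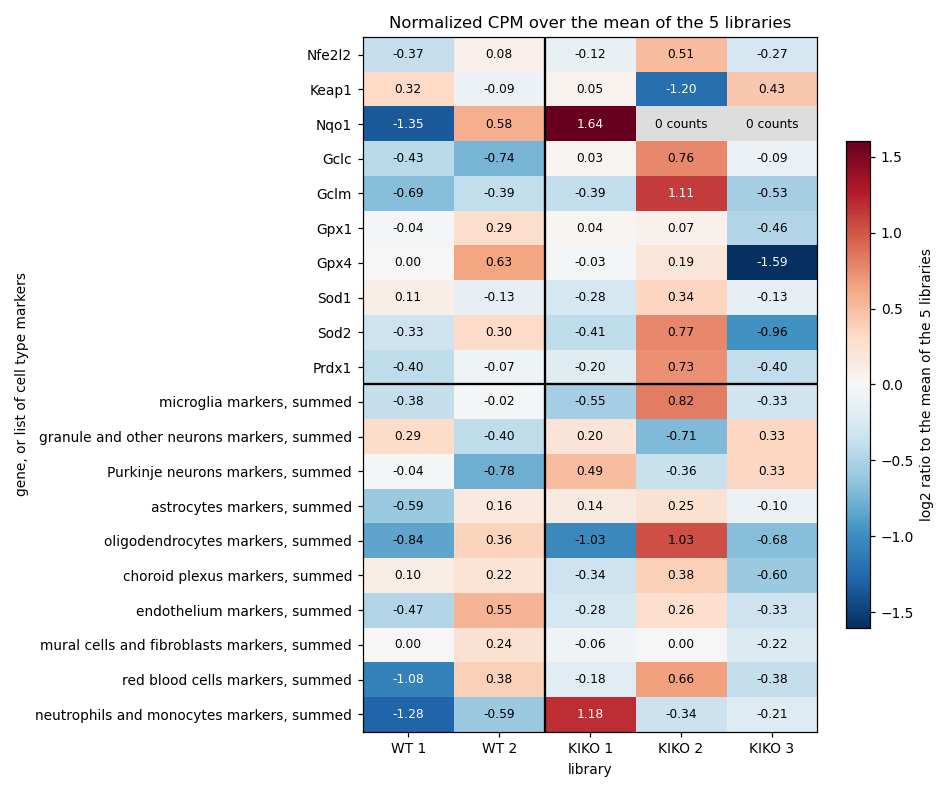
Log2 ratio of each library (columns) to the mean of the 5 libraries for the 10 genes and for the summed normalized CPM of 10 lists of cell type markers (rows). Red is above and blue below the mean, and grey cells have 0 counts. In the column of KIKO replicate 2, *Gclm* (1.11), oligodendrocyte markers (1.03) and microglial markers (0.82) are the highest values and *Keap1* (−1.20) is the lowest.

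The levels of different genes were compared per kilobase of annotated exon, as the mean over the 5 libraries. *Gpx1* was highest with 112.6 ± 20.1 normalized CPM per kilobase (SD, n = 5), followed by *Sod1* with 87.6 ± 15.4, *Prdx1* with 54.9 ± 20.6 and *Nfe2l2* with 47.6 ± 12.4. *Gpx4* (24.8 ± 10.8), *Gclc* (23.2 ± 9.84) and *Keap1* (17.0 ± 6.05) came next, before *Gclm* (8.40 ± 5.49), *Sod2* (3.76 ± 1.77) and *Nqo1*, which had between 0 and 5.08. The ranges of all neighbours in this order overlapped. Within libraries, *Gpx1* was above *Sod1*, *Sod1* above *Prdx1* and *Prdx1* above *Nfe2l2* in 5 of 5 libraries, while *Gpx4* was above *Gclc* in 3. If the libraries count mRNA ends, as the name of the study's digital mRNA service may mean, division by length does not apply. By normalized CPM alone, *Sod1* came first, ahead of *Nfe2l2* and then *Prdx1*.

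The wider redox system was described with 8 lists of 128 different genes, the 10 genes included. Of these, 108 were tested. *Blvrb* was the only gene past both thresholds, beside 1.2% of all genes tested. Its product, biliverdin reductase B, acts in heme breakdown and reduces flavins. It had 41.8 and 53.1 normalized CPM in WT and 14.2, 13.1 and 7.10 in KIKO mice, so that all KIKO libraries were below both WT libraries. In either direction, the groups did not overlap for 16.7% of all genes tested. The log2 fold change of *Blvrb* was −2.03 (SE 0.52, adjusted p = 1 by edgeR) and was −2.12 without KIKO replicate 2. With all libraries, its unadjusted p of 0.00399 by edgeR was the smallest of all genes tested. Over the 108 genes, the log2 fold change was above 0 for 64 and below 0 for 44, with a median of 0.097. Over all 10889 genes tested, it was above 0 for 5648. The balance turned without KIKO replicate 2, where it was above 0 for 41 of 104 genes with a median of −0.114. Over all genes in that fit, it was above 0 for 5089 of 10373, with a median of −0.012. With sample quality weights, it was above 0 for 45 of 108 list genes with a median of −0.093. Over all genes with these weights, it was above 0 for 5312 of 10889, with a median of −0.013.

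**Figure D4:**
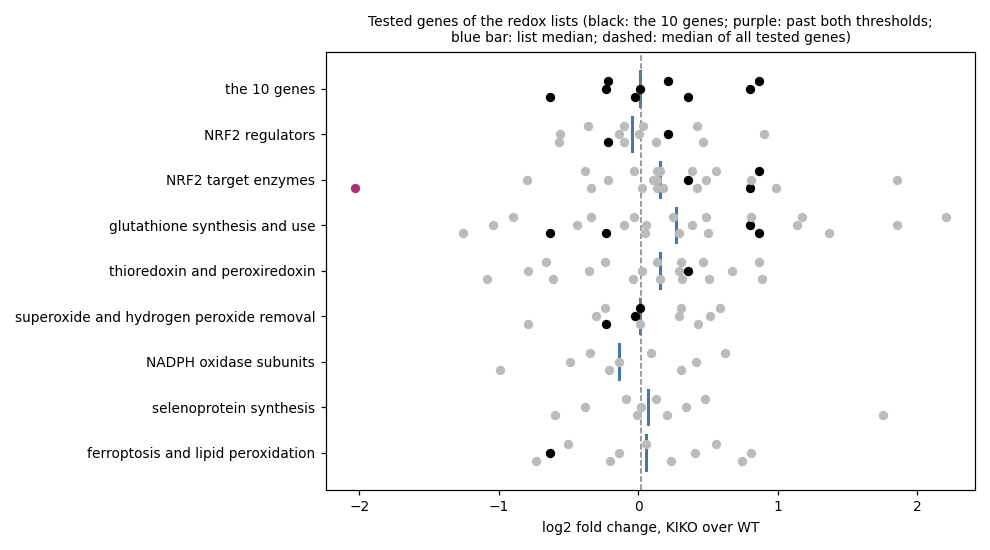
Log2 fold change of KIKO over WT mice (horizontal axis) for each tested gene of the 10 genes and of the 8 redox lists (rows), some of which share genes. Blue bars are list medians, which lie between −0.14 and 0.27, the dashed line is the median of all tested genes, and the purple point is *Blvrb*.

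Among the NRF2 regulators, 0 of 14 tested genes passed the thresholds, and the median log2 fold change was −0.049. *Bach1*, a repressor that competes with NRF2 at its elements, differed by 0.42 on the log2 scale (SE 0.42), and all KIKO libraries lay above both WT libraries. *Mafg*, a small MAF partner, had 230 and 261 normalized CPM in WT and 215, 111 and 170 in KIKO mice, which gave a log2 fold change of −0.57 (SE 0.39). *Cul3*, the scaffold of the ligase that degrades NRF2, had −0.56 (SE 0.40). For *Mafg* and *Cul3*, all KIKO libraries lay below both WT libraries, and each adjusted p by edgeR was 1. The groups did not overlap for 16.7% of all genes. Over the 108 genes of the lists, 12 were higher and 10 lower in every KIKO library. The log2 fold changes were 0.19 for *Bach1*, −0.35 for *Mafg* and −0.51 for *Cul3* without KIKO replicate 2.

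Among the NRF2 target enzymes, 1 of 23 tested genes, *Blvrb*, passed the thresholds, and the median was 0.151. *Hmox1*, the inducible heme oxygenase, had 126 and 77.4 normalized CPM in WT and 138, 112 and 176 in KIKO mice. For this gene, the log2 fold change was 0.48 (SE 0.40, adjusted p = 1 by edgeR). Without KIKO replicate 2 it was 0.63 with an unadjusted p of 0.0399, short of the size of 0.75. *Txnrd1*, thioredoxin reductase, and *Srxn1*, sulfiredoxin, had log2 fold changes of 0.14 (SE 0.38) and 0.15 (SE 0.38), and of −0.10 and 0.27 without KIKO replicate 2. *Slc7a11*, the cystine carrier that feeds glutathione synthesis, had 12 and 9 counts in WT and 16, 25 and 17 in KIKO mice, with a log2 fold change of 0.81 (SE 0.68) and 0.67 without KIKO replicate 2.

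Of 24 tested genes of glutathione synthesis and use, 0 passed the thresholds, and the median log2 fold change was 0.268. *Gsr*, glutathione reductase, had 7 and 2 counts in WT and 11, 38 and 7 in KIKO mice, and *Gsto1*, a glutathione transferase of the omega class, had 4 and 7 in WT and 8, 62 and 11 in KIKO mice. Their log2 fold changes of 1.85 (SE 1.04) and 2.2 (SE 1.01) rested on KIKO replicate 2, and without it neither gene passed the filter on low counts.

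Of 19 tested genes of the thioredoxin and peroxiredoxin list and 12 of superoxide and hydrogen peroxide removal, 0 passed the thresholds, with medians of 0.151 and 0.011. *Prdx6*, a peroxiredoxin that uses glutathione, had 77.7 and 63.7 normalized CPM in WT and 86.0, 89.6 and 84.2 in KIKO mice, which gave a log2 fold change of 0.29 (SE 0.36). *Prdx5* had −0.24 (SE 0.47), *Txn1*, thioredoxin, 0.50 (SE 0.59), and *Cat*, catalase of peroxisomes, 0.42 (SE 0.54). *Prdx3*, the mitochondrial peroxiredoxin, had 3 and 6 counts in WT and 8, 8 and 9 in KIKO mice, too few to be tested. When KIKO replicate 2 was left out, *Txn1* turned to −0.26, while *Prdx6* had 0.27, *Prdx5* −0.43 and *Cat* 0.22. The genes with the smallest p in these lists were *Sesn3* (log2 fold change −0.66), *Msrb1* (0.88), *Mt3* (0.59) and *Park7* (0.51), with unadjusted p between 0.168 and 0.274. Their log2 fold changes were −0.75, 1.1, 0.34 and 0.19 when KIKO replicate 2 was left out.

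On the side of oxidant production, 0 of 9 tested subunits of the NADPH oxidase passed the thresholds, and the median was −0.139. *Cybb*, the catalytic subunit of phagocytes, had 31.9 and 29.6 normalized CPM in WT and 17.4, 7.73 and 21.3 in KIKO mice. All KIKO libraries were below both WT libraries. The groups did not overlap for 1 of the 9 tested subunits, beside 16.7% of all genes tested in either direction. For *Cybb*, the log2 fold change was −0.99 (SE 0.58, 95% confidence interval −2.33 to 0.34, adjusted p = 1 by edgeR). Its partner *Cyba* had −0.35 (SE 0.39). These values were −0.68 for *Cybb* and −0.29 for *Cyba* when KIKO replicate 2 was left out. In the selenoprotein synthesis list, 0 of 10 genes passed. *Sephs1* had 1.75 (SE 0.95), with 56 of its counts in KIKO replicate 2 and 5 to 10 in each other library, and *Secisbp2l* had −0.38 (SE 0.38), or −0.32 without that library. In the list of ferroptosis and lipid peroxidation, 0 of 11 passed. *Vdac2* had 0.74 (SE 0.65), which rested on KIKO replicate 2 and turned to −0.17 without it.

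Without KIKO replicate 2, 8 of 104 tested genes of these lists (7.69%) passed both thresholds, beside 6.45% of all genes in that fit. *Blvrb*, *Gpx4*, *Acsl4*, *Fth1*, *Rap1a* and *Txnip* were lower and *Lrp8* and *Vdac3* higher in KIKO mice. *Txnip*, which encodes an inhibitor of thioredoxin, had a log2 fold change of −1.22 (SE 0.34), and *Fth1*, the ferritin heavy chain that stores iron, one of −0.80 (SE 0.30), with adjusted p of 0.243 and 0.489 by edgeR. Both were named after their values were seen. In KIKO replicate 2, *Txnip* (323 normalized CPM) and *Fth1* (5858) had their highest level of all libraries.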

How the data were processed

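RNA of the cerebellum was sequenced in the WT and KIKO samples named above. For the deposited count table, the authors used Trimmomatic for trimming, HISAT2 for alignment to mm10 and featureCounts for counts per gene, without normalization. The annotation, the strand setting and the handling of reads with several positions are not given in the sources used here. The kits named by the labels (stranded) and by the study (a digital mRNA service) differ. The deposited log2 values equal log2(count / DESeq2 size factor + 1) and returned the count within 0.01 for 100% of values. Columns were matched to samples by name, and 2 further columns of each table, which match no sample, were not used.

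Gene names, positions and exon lengths came from GENCODE on GRCm38, the build called mm10, with a name for 99.6% of 31053 identifiers. The main test was edgeR 4.0.16 under R 4.3.3, with TMM scaling, glmQLFit and glmQLFTest (two-sided), after filterByExpr set to a minimum count of 10 and to 15 in total, and with Benjamini-Hochberg adjustment over 10889 genes. Normalized CPM divide counts by the TMM-scaled library size. The members, lists and tests were chosen with earlier results of these data known. The genes named were the 10 members, the companions *Bach1*, *Hmox1*, *Txnrd1*, *Srxn1*, *Slc7a11*, *Gsr*, *Cat*, *Prdx3*, *Prdx5*, *Prdx6* and *Txn1*, every list gene past the thresholds and the 2 genes with the smallest p of each list. The gene targeted in the KIKO line is not reported here. DESeq2 1.42.0, limma 3.58.1, other scalings and filters, sample quality weights, a replicate block and the omission of each library served as alternatives. The fit was tested on simulated data for KIKO against WT, with 10404 genes. Of 83 genes changed by 1 on the log2 scale, 39.8% passed the thresholds, and of 100 genes changed by 2, 81% did. The simulated counts had the same dispersion (spread between libraries) for every gene. They also held no library that stood apart as KIKO replicate 2 did. These shares therefore do not carry over to the real libraries. No batch is named in the labels, and nothing in them says whether replicates were separate mice, so p-values measure the spread between these libraries.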

Additional observations from a re-analysis of the deposited data

How the results depend on the processing

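The number of genes past both thresholds, 131 with all libraries, was 383 without a filter, 271 with a replicate block, 519 with sample quality weights and between 56 (without WT replicate 1) and 669 (without KIKO replicate 2) when 1 library was left out. The number with an adjusted p under 0.05 was 1 without a filter and 0 to 5 with 1 library left out, the 5 without KIKO replicate 2. Of the 10 antioxidant genes, 1 passed with quality weights and 0 to 1 with a library left out, *Gpx4* in each case. The median log2 fold change of the tested members, 0.0076 with all libraries, was 0.21 with the replicate block and −0.017 with quality weights. In the main test, 1 of 108 tested genes of the redox lists passed, beside 131 of all 10889 genes. It was 2 of 108 in DESeq2, beside 136 of 10889, and 4 of 126 without a filter, beside 383 of 16822. With the replicate block, 2 of 108 passed, beside 271 of 10889. With quality weights, 6 of 108 passed, beside 519 of 10889 (4.77%). With 1 KIKO library left out, 2 to 8 list genes passed. The 8 were of 104 without KIKO replicate 2, beside 669 of 10373 (6.45%). With at least 10 counts in every library, 0 of 79 list genes passed, beside 111 of 7675. *Blvrb* had 7 counts in KIKO replicate 3 and was not tested there.

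The direction of several log2 fold changes turned. With quality weights they were −0.017 for *Nfe2l2*, 0.054 for *Keap1*, −0.18 for *Sod1*, −0.015 for *Prdx1*, −0.063 for *Txnrd1*, −0.18 for *Txn1* and −0.042 for *Vdac2*. *Sod1* was −0.0033 without a filter and −0.0030 in limma on the deposited log2 values. *Sod2* was 0.040 with the library size alone. With the replicate block, *Sod2* was 0.21 and *Prdx5* 0.086. With 1 library left out, the ranges were −0.071 to 0.44 for *Nfe2l2*, −0.57 to 0.12 for *Keap1*, −0.20 to 0.13 for *Sod1*, −0.68 to 0.30 for *Sod2*, −0.074 to 0.56 for *Prdx1*, −0.10 to 0.26 for *Txnrd1*, −0.10 to 0.43 for *Srxn1*, −0.63 to 0.26 for *Prdx5*, −0.26 to 0.79 for *Txn1*, −0.65 to 0.029 for *Cyba* and −0.17 to 1.20 for *Vdac2*. The cause was not tested.

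Replicate numbers are shared by 2 pairs of libraries, and nothing in the labels says that they mark a litter or day. Deviations from the group means correlated with r = 0.18 and r = 0.239 within those pairs, and with r = 0.218 between WT replicate 1 and KIKO replicate 3. With 2 WT libraries, their deviations are equal in size and opposite in sign, so each r recurs with its sign turned. These values therefore cannot show whether the libraries were paired. Where a WT library was left out, the remaining one was assumed to vary like the KIKO libraries. The filter on low counts removed *Nqo1*, which at 0 to 10 counts was near the limit of this depth.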
